A study of Mus musculus with 7 samples.

Results

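The comparison set sorted stage 1 natural killer T (NKT) thymocytes that lack the transcription factor PLZF against conventional CD4 single-positive (CD4SP) thymocytes. It used 5 of the 7 arrays of the series, chosen by their labelled group: 3 of Luxoid NKT cells and 2 of CD4SP cells. The other 2 arrays, of stage 1 NKT cells with intact PLZF, were used to tell which differences the mutant shared with them. Luxoid NKT cells came from PLZF-deficient Luxoid mice that also carried a Valpha14 T cell receptor transgene, and the PLZF-sufficient NKT cells came from mice with the Valpha14 transgene alone. Both were sorted from thymus as CD1d tetramer positive, CD24 low, CD44 negative and NK1.1 negative. CD4SP cells, CD4 positive and CD8 negative, came from wild-type mice without the transgene. All mice were 4 to 6 weeks old and on a C57BL/6J background, and each sample was a pool of mice. The cell type label of the CD4SP samples repeats the NKT sort, whereas the title, source and description of each say CD4SP, which was followed. Cell type, transgene and mutation all differ between Luxoid NKT and CD4SP cells, so their parts in any difference between those groups cannot be told apart.

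NKT cells see lipid antigens on CD1d through a nearly invariant receptor, in the mouse built on the Valpha14 segment. They are selected in the thymus by CD4+ CD8+ thymocytes rather than by epithelium, with strong receptor signalling and help from receptors of the SLAM family. PLZF, encoded by Zbtb16, is a BTB zinc finger protein known for the innate effector programme of these cells, which otherwise stay naive-like. Stage 1 is the early step before the activation marker CD44 and then NK receptors appear.

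Values are RMA intensities on a linear scale and tests were made on their log2. Of 18193 genes with a named probe set, 10874 were bright enough to be tested. Array medians lay between 79.6 and 83.7. Pearson correlations of log2 values across probe sets were 0.984 to 0.992 within groups, 0.968 to 0.979 between Luxoid NKT and CD4SP arrays, and 0.981 to 0.992 between Luxoid and PLZF-sufficient NKT arrays. The labels call the samples biological replicates from pools, so p-values measure the spread between pools. The pools differed in sex: Xist and the Y-linked Kdm5d were at 6547 and 8.28 on Luxoid array 1, at 36.1 and 1745 on Luxoid array 2, and both were bright on Luxoid array 3, at 5426 and 758. CD4SP array 1 had Xist only, at 6723, and CD4SP array 2 had Kdm5d only, at 2331. The second PLZF-sufficient NKT array carried both signals, at 3888 for Xist and 1120 for Kdm5d.

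Luxoid NKT cells were far from CD4SP cells. At an adjusted p under 0.05 in limma, 1232 genes (11.3% of those tested) were higher and 599 (5.51%) were lower. Of these, 611 and 198 differed by at least 2-fold, and 167 and 31 by at least 4-fold. Luxoid and CD4SP arrays did not overlap in 4998 of the genes tested (46.0%). That held for all 1831 called genes, so a lack of overlap adds nothing to a call. The median log2 difference over all genes tested was 0.02, with quartiles of -0.20 and 0.29. In the same fit PLZF-sufficient NKT cells were higher than CD4SP in 1177 genes (10.8%) and lower in 444 (4.08%). Luxoid NKT cells were higher than PLZF-sufficient ones in 98 (0.901%) and lower in 71 (0.653%). A fit blocked by replicate number called 1844 and 772 genes between PLZF-sufficient NKT and CD4SP cells. The blocked fit called 1510 and 789 between Luxoid NKT and CD4SP cells. Of the 1232 higher genes, 508 kept the call whichever of the 7 arrays was left out, and of the 599 lower genes 150 did. Leaving out CD4SP array 1 left 739 higher and 239 lower genes, and leaving out CD4SP array 2 left 633 and 233. Without Luxoid array 3 there were 397 lower genes. Leaving out both arrays with mixed sex signals gave 682 and 236.

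Zbtb16 message was abundant in the mutant NKT cells. Its brightest probe set read 1857, 2774 and 2645 on the Luxoid arrays, 2751 and 3488 in PLZF-sufficient NKT cells, and 87.3 and 61.8 in CD4SP cells. The Luxoid and CD4SP groups lay far apart, with a log2 difference of 5.02 (SE 0.23, adjusted p = 5.13e-06), while Luxoid and PLZF-sufficient NKT cells differed by -0.38 (adjusted p = 0.607). The other 2 probe sets of Zbtb16 were lower in Luxoid than in PLZF-sufficient NKT cells by 0.87 and 0.76 on the log2 scale. Their adjusted p = 0.123 and 0.0576 came from a separate limma fit over all probe sets with 1 symbol past the filter. The brightest probe set had adjusted p = 0.657 in that fit. The arrays measure RNA, so these values check the NKT identity of the sort and do not show whether PLZF protein was made.

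Several regulators associated with NKT cells were high in the mutant cells. Of 24 tested genes on the NKT regulator list, 11 were higher in Luxoid NKT than in CD4SP cells and 2 were lower, with a median log2 difference of 0.24 against 0.02 over all genes tested. The shares of all genes tested, 11.3% higher and 5.51% lower, are the background for the counts of every list below. Tox2, an HMG-box factor, read 778, 1454 and 1540 in Luxoid NKT cells and 62.0 and 102 in CD4SP cells. Every Luxoid array was thus several times brighter than either CD4SP array (15.1-fold, log2 difference 3.92, SE 0.32, adjusted p = 9.67e-05). Maf, a factor for interleukin 4 transcription, was at 1836, 1476 and 1084 against 305 and 152 (2.73, SE 0.31, adjusted p = 0.000551). One other probe set of Maf had the opposite sign.

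Il2rb, the beta chain of the interleukin 2 and 15 receptors, read 3285, 3812 and 3240 in Luxoid NKT cells and 675 and 593 in CD4SP cells. That was a 5.43-fold difference with no overlap (log2 2.44, SE 0.18, adjusted p = 5.44e-05). Myb, a factor needed for NKT precursors, was at 2011, 1969 and 2379 against 724 and 627 (1.65, SE 0.19, adjusted p = 0.000564). Tox, a factor of CD4 lineage development, was 1.80-fold higher, but its adjusted p rose to 0.121 without CD4SP array 1. Ikzf2, which encodes Helios, was 2.41-fold higher, with adjusted p = 0.0537 without CD4SP array 1 and 0.104 without CD4SP array 2. Gata3, a factor of CD4 and type 2 cells, was 1.54-fold higher (adjusted p = 0.0384), and 6 of the 7 omissions of an array ended that call, with adjusted p up to 0.274 without CD4SP array 2.

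The SLAM pathway was split. Slamf6, one of the receptors that support NKT selection, read 2386, 2002 and 2115 in Luxoid NKT cells and 1069 and 1121 in CD4SP cells. The groups did not overlap, and the log2 difference was 0.98 (SE 0.14, adjusted p = 0.00165). Slamf1, another receptor of the family, went the other way, at 134, 127 and 129 against 470 and 688 (-2.13, SE 0.18, adjusted p = 0.000117). Sh2d1a, the adaptor SAP, was 1.84-fold higher, with adjusted p = 0.0559 without Luxoid array 1, 0.0941 without CD4SP array 1 and 0.166 without CD4SP array 2. Fyn, the kinase that SAP recruits, differed by -0.50 (adjusted p = 0.0531) and was not called. Of 7 tested SLAM and SAP genes, 2 were higher, 1 was lower and 4 were not called.

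Of the 3 Id genes tested, inhibitors of E proteins, Id2 and Id3 were higher and Id1 was not called. Id2 read 2479, 2292 and 1900 in Luxoid NKT cells and 429 and 484 in CD4SP cells, a 4.85-fold difference (log2 2.28, SE 0.15, adjusted p = 3.52e-05). Id3, which is induced by receptor signals, was at 2761, 2358 and 2081 against 1279 and 1305 (0.88, SE 0.15, adjusted p = 0.00521). Like every called gene, Id2 and Id3 showed no overlap between the groups. Id1 overlapped, at 134, 129 and 121 against 129 and 145 (-0.10, adjusted p = 0.768). The E protein genes Tcf3 and Tcf12 differed by -0.12 and 0.38 and were not called. Tcf4 was 1.89-fold higher (adjusted p = 0.0396), with 4 omissions ending the call, up to 0.213 without CD4SP array 2.

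Other BTB zinc finger and Bach genes did not rise: of 14 tested, none was higher and 6 were lower, with a median of -0.38. Bach2, a repressor of effector genes in naive T cells, read 1587, 1133 and 1005 in Luxoid NKT cells and 4274 and 4079 in CD4SP cells. CD4SP cells were 3.43-fold brighter (log2 -1.78, SE 0.20, adjusted p = 0.000638). Zbtb4 and Zbtb20 also fell, by 1.51 and 0.84 on the log2 scale (adjusted p = 0.000451 and 0.0031). Zbtb7b, which encodes ThPOK, the factor of the CD4 lineage, was 1.97-fold lower (adjusted p = 0.0126), with adjusted p = 0.0576 and 0.111 without CD4SP array 1 and array 2.

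**Figure D1:**
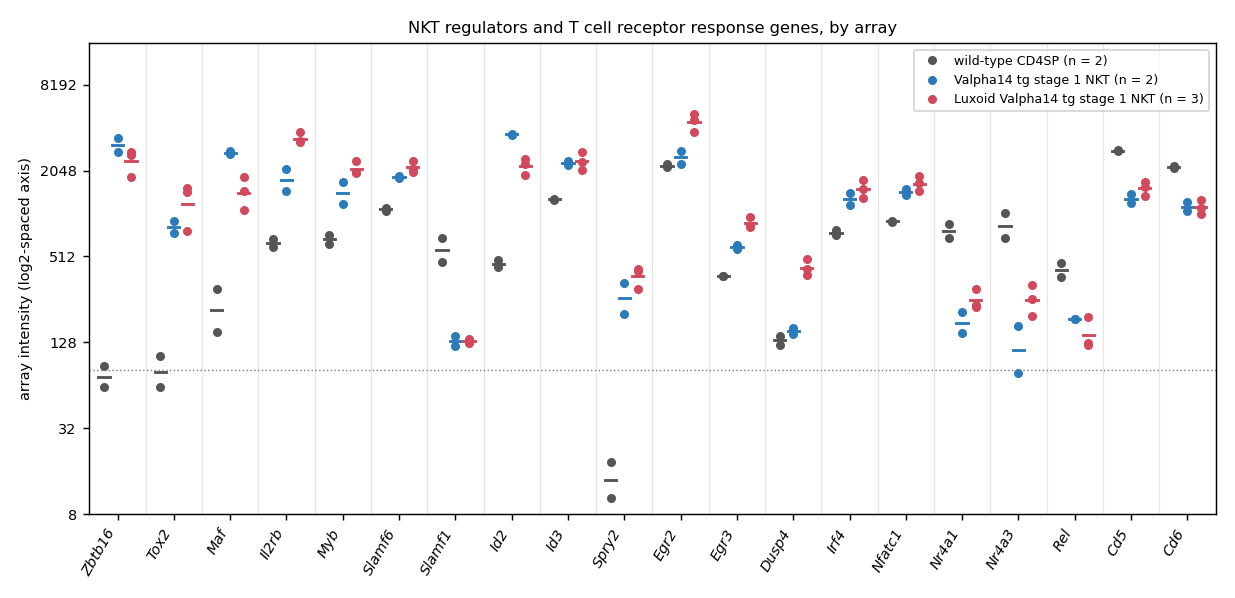
Array intensities on a log2-spaced axis for 20 regulators and receptor response genes, with a point for each array, a bar at the mean of the log2 values of each group, and a dotted line at 82.0, the brightness filter. Zbtb16, Tox2, Maf and Spry2 separate both NKT groups from CD4SP, whereas Dusp4 is brightest in Luxoid NKT cells, at 380 to 491, above 123 to 160 on the other arrays.

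Genes that respond to T cell receptor signals moved in both directions. Of 24 tested, 6 were higher in Luxoid NKT than in CD4SP cells, 6 were lower and 12 were not called, with a median of 0.04. Over all genes tested, 11.3% were higher and 5.51% lower. Among the 12 called genes, 6 higher and 5 lower ones kept the call whichever array was left out. Spry2, an inhibitor of receptor signalling to the MAP kinase ERK, gave the largest difference, at 421, 305 and 405 against 18.6 and 10.3. CD4SP values lay under the brightness filter, so the Luxoid cells were at least 4.55-fold brighter than CD4SP cells, counted from that limit as in each such bound (log2 4.75, SE 0.30, adjusted p = 2.20e-05). Spry2 read 333 and 203 in PLZF-sufficient NKT cells, which overlapped the Luxoid range.

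Members of the Egr family, zinc finger factors induced by receptor signals, differed from each other. Egr2, which is needed for NKT development, read 3807, 4634 and 5130 in Luxoid NKT cells against 2174 and 2266 in CD4SP cells. All Luxoid arrays were above both CD4SP arrays (log2 difference 1.02, SE 0.17, adjusted p = 0.00442). Egr3 was at 824, 844 and 976 against 375 and 374 (1.23, SE 0.14, adjusted p = 0.000538). Egr1 read 2707, 2559 and 2329 against 2666 and 2494, overlapping groups with a log2 difference of -0.03 (95% interval -0.34 to 0.28). Irf4, a factor of effector lymphocytes, and Nfatc1, a calcium-regulated factor, rose by 1.01 and 0.87 on the log2 scale (adjusted p = 0.0041 and 0.00476).

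Of the 3 Nr4a genes tested, orphan receptors also induced by receptor signals, Nr4a1 and Nr4a3 were lower in the mutant NKT cells and Nr4a2 was not called. Nr4a1, which encodes Nur77, read 232, 305 and 225 in Luxoid NKT cells and 685 and 864 in CD4SP cells. CD4SP cells were 3.05-fold brighter (log2 -1.61, SE 0.21, adjusted p = 0.00115). Nr4a3 was at 323, 259 and 197 against 1030 and 690 (-1.73, SE 0.34, adjusted p = 0.01), with adjusted p = 0.0976 without CD4SP array 1. Nr4a2 read 127, 163 and 136 against 165 and 181 (-0.29, adjusted p = 0.238), and 4 of its 6 probe sets had the opposite sign. Rel, an NF-kappaB subunit, fell by 1.50, and Dusp5, a phosphatase of ERK, fell by 1.12 on the log2 scale (adjusted p = 0.00187 and 0.0018). The surface receptors Cd5 and Cd6, which dampen receptor signals, were at 1706, 1568 and 1358 against 2792 and 2854, and at 1284, 1113 and 1018 against 2133 and 2201. Both fell, by 0.88 and 0.94 (adjusted p = 0.00484 and 0.00367).

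**Figure D2:**
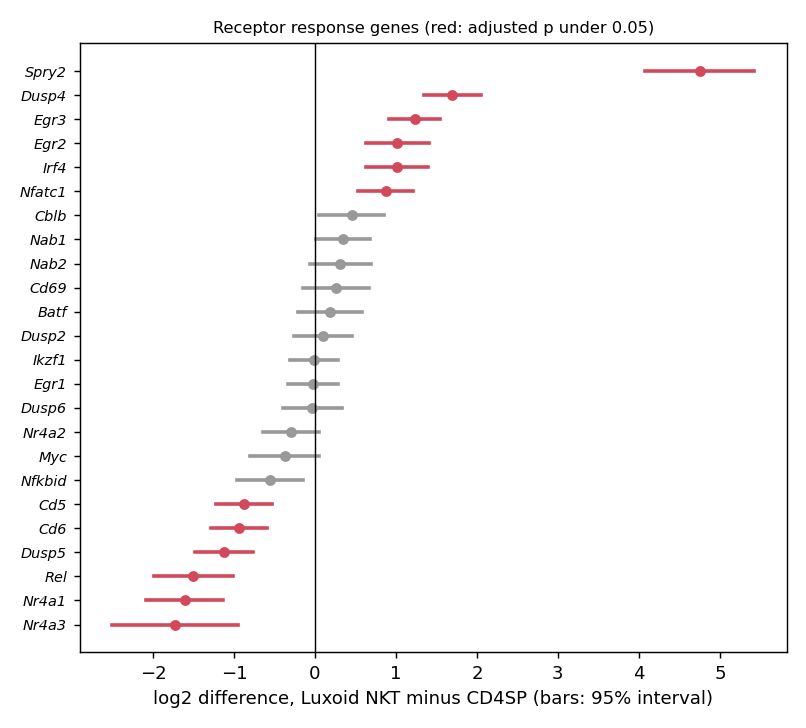
Log2 difference between Luxoid NKT and CD4SP cells for the 24 tested receptor response genes, with bars for the 95% interval of each difference. The list spans from Nr4a3 at -1.73 to Spry2 at 4.75, with 6 genes called on each side.

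Some receptor response genes told the NKT groups apart. Cd69, an early activation marker that retains cells in the thymus, read 1055, 1040 and 1429 in Luxoid NKT cells, 882 and 1066 in CD4SP cells, and 283 and 277 in PLZF-sufficient NKT cells. The mutant thus lay near CD4SP cells (log2 difference 0.26, adjusted p = 0.376) and 4.15-fold above PLZF-sufficient NKT cells (2.05, adjusted p = 0.000955). Dusp6, another ERK phosphatase, was at 663, 543 and 667 in the mutant, 682 and 594 in CD4SP cells, and 322 and 272 in PLZF-sufficient NKT cells. Its difference between the NKT groups was 1.07 (adjusted p = 0.014), with adjusted p = 0.0765 and 0.202 without the first and second PLZF-sufficient array and 0.0564 without Luxoid array 3. Altogether 3 of the 24 genes were higher in Luxoid than in PLZF-sufficient NKT cells and none was lower.

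Of 23 tested genes for receptor chains and proximal signalling, none was higher and 4 were lower in Luxoid NKT than in CD4SP cells, where 11.3% and 5.51% of all genes tested were called. Cd3e read 4352, 5097 and 4671 against 5265 and 5837 (log2 difference -0.24, adjusted p = 0.31). Cd4 was lower, at 2164, 2360 and 2164 against 5824 and 6754 (-1.49, SE 0.14, adjusted p = 0.000251), and is a gate gene of the CD4SP sort. Sit1, an adaptor that dampens receptor signals, was 2.89-fold lower (adjusted p = 0.000777). Trat1 and Lat, adaptors of the receptor, were 1.80-fold and 1.43-fold lower, and the calls were lost without CD4SP array 2 for both, at adjusted p = 0.125 and 0.0968. Trat1 was also lost without CD4SP array 1 (0.0546) and Lat on leaving out any of the 7 arrays, with adjusted p up to 0.183.

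Receptor gene segments gave some of the largest differences. Trgv4 and Trgv1 are variable segments of the receptor gamma chain. Trgv4 read 4522, 4387 and 4138 in Luxoid NKT cells and 96.6 and 53.0 in CD4SP cells (60.8-fold, adjusted p = 2.59e-06). Trgv1 was at 5769, 5713 and 5467 against 104 and 105 (54.1-fold, adjusted p = 2.25e-07). PLZF-sufficient NKT cells, with the same transgene, were at least as bright, at 5154 and 5542 for Trgv4 and 5860 and 6512 for Trgv1. Probe sets of such segments may share sequence with other gamma chain segments. Of 3 tested markers of gamma-delta T cells, 2 were higher: Etv5 rose by 2.86 (adjusted p = 0.000529), and Sox13 was at least 1.14-fold brighter than CD4SP cells, which lay under the filter limit (adjusted p = 0.0448). The Sox13 call was lost in 4 omissions, with adjusted p up to 0.246 without CD4SP array 2, and with the replicate block (0.111), which left 1 higher marker. The summed level of the marker list was 1273 to 1729 on Luxoid arrays, 1269 to 1610 on PLZF-sufficient NKT arrays and 905 to 1009 on CD4SP arrays, and its part in the segment values was not tested. Trav12n-1, a variable segment of the alpha chain other than Valpha14, read 101, 94.8 and 63.2 in Luxoid NKT cells and 781 and 748 in CD4SP cells (log2 -3.18, SE 0.24, adjusted p = 6.69e-05).

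Costimulatory genes were divided too, with 7 higher and 5 lower of 19 tested, against 11.3% and 5.51% of all genes tested. Pdcd1, which encodes the inhibitory receptor PD-1, read 1926, 1639 and 1650 in Luxoid NKT cells and 169 and 174 in CD4SP cells. The difference was 10.1-fold (log2 3.34, SE 0.15, adjusted p = 5.36e-06), and PLZF-sufficient NKT cells, at 1874 and 1491, overlapped that range. Cd160 and Tnfsf14, a receptor and a ligand of the HVEM pathway, were 4.91-fold and 4.52-fold higher (adjusted p = 7.06e-05 and 1.64e-05). Ctla4, an inhibitory receptor, was at 67.5, 48.8 and 57.0 in the mutant, under the brightness filter, and at 464 and 326 in CD4SP cells, at least 4.74-fold brighter there. Tnfrsf4, which encodes OX40, was 6.12-fold lower in the mutant (adjusted p = 1.35e-05).

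The last pair of genes also marks regulatory T cells, which a CD4SP sort includes. Foxp3, the defining factor of regulatory T cells, read 193, 148 and 174 in Luxoid NKT cells, 161 and 166 in PLZF-sufficient NKT cells, and 465 and 449 in CD4SP cells. CD4SP cells were thus 2.68-fold brighter (adjusted p = 0.000397). All 10 markers of that list were called, 8 lower and 2 higher, with a median of -1.52. The higher ones were Capg and Ikzf2. Ikzf4 fell by 2.29 on the log2 scale (adjusted p = 0.000249), and Il2ra was at least 2.02-fold brighter in CD4SP cells, with all Luxoid arrays under the filter limit (adjusted p = 0.00107). The summed level of the list was 4531 to 6123 on Luxoid arrays and 5981 to 6807 on CD4SP arrays. In such bulk samples, fewer cells of a type and less RNA per cell cannot be told apart, and the part of regulatory T cells in the Ctla4, Tnfrsf4 and Ccr8 values was not tested.

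Effector genes of type 2 cells were mostly higher in the mutant NKT cells than in CD4SP cells. Of 12 tested, 8 were higher and 1, Ccr8, was lower, with a median of 1.20 against 0.02 over all genes tested. Il4, the cytokine that defines type 2 responses, read 274, 222 and 203 in Luxoid NKT cells, 49.3 and 51.9 in CD4SP cells, and 566 and 489 in PLZF-sufficient NKT cells. The mutant was at least 2.82-fold brighter than CD4SP cells, which lay under the filter limit (log2 2.19, SE 0.17, adjusted p = 6.03e-05) and 1.19 lower than PLZF-sufficient NKT cells on the log2 scale (adjusted p = 0.01). Without the first or second PLZF-sufficient array the latter had adjusted p = 0.131 and 0.0777. Il13, a related cytokine, was at 206, 265 and 215 against 69.5 and 109 (1.39, SE 0.22, adjusted p = 0.00316), and at 520 and 644 in PLZF-sufficient NKT cells. Il17rb, a receptor for interleukin 25, and Ccr4, a chemokine receptor of type 2 cells, rose by 1.46 and 2.41 (adjusted p = 0.00126 and 0.000156).

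Type 1 and cytotoxic genes were less uniform, with 6 higher and 2 lower of 14 tested, against 11.3% and 5.51% of all genes tested. Nkg7, a granule protein, read 1256, 908 and 991 in Luxoid NKT cells and 84.2 and 96.6 in CD4SP cells (11.5-fold, log2 3.53, SE 0.17, adjusted p = 7.76e-06). The gene of granzyme B, Gzmb, was at 277, 216 and 184 against 53.5 and 61.9, at least 2.72-fold brighter in the mutant (adjusted p = 0.000788). PLZF-sufficient NKT cells read 115 and 73.1 for Gzmb. The mutant was above them by 1.28 (adjusted p = 0.0358), a call lost on leaving out any of the 7 arrays. Hopx, a homeodomain protein, rose by 2.71 (adjusted p = 0.000104), and Klrd1, the NK receptor chain CD94, was at least 1.99-fold brighter than CD4SP cells, which lay under the filter limit (adjusted p = 0.00126). For Hopx the mutant was also above PLZF-sufficient NKT cells, by 1.16 (adjusted p = 0.0457), a call lost in 6 of the 7 omissions of an array. Tbx21, which encodes T-bet, read 70.4, 74.9 and 94.1 against 57.9 and 61.2, near the filter limit, and was not called (0.41, adjusted p = 0.123). The chemokine receptor Cxcr3 was lower, at 41.8, 29.5 and 36.3 against 94.9 and 104, so that CD4SP cells were at least 1.21-fold brighter (adjusted p = 0.000931). PLZF-sufficient NKT cells read 69.3 and 87.0 for Cxcr3. The mutant differed from them by -1.13 (adjusted p = 0.0208), a call lost in 5 of the 7 omissions.

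Homing genes contained some of the strongest NKT features, with 10 higher and 4 lower of 28 tested, against 11.3% and 5.51% of all genes tested. Cxcr6, a chemokine receptor of innate-like T cells, read 521, 622 and 398 in Luxoid NKT cells, 43.6 and 38.3 in CD4SP cells, and 944 and 885 in PLZF-sufficient NKT cells. The mutant was at least 6.16-fold brighter than CD4SP cells (log2 3.63, SE 0.19, adjusted p = 1.18e-05). Itgae, the alpha chain of CD103, was at 1150, 1069 and 983 against 150 and 72.1 in CD4SP cells (3.36, SE 0.27, adjusted p = 9.31e-05). Itga2, the collagen receptor chain CD49b, and Ccr9, a receptor for a thymic and gut chemokine, rose by 2.02 and 1.79 (adjusted p = 0.000127 and 0.000224). Ccr8 fell by 2.80, and CD4SP cells were at least 3.89-fold brighter than Luxoid NKT cells, all under the filter limit (adjusted p = 0.000338). The cytokine receptors had 6 genes on each side of 24 tested. Ifngr2, a chain of the interferon gamma receptor, was 3.66-fold lower and Il6ra 2.68-fold lower (adjusted p = 4.93e-05 and 0.000514).

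Of 18 tested genes of naive, recirculating T cells, 9 were lower, 3 were higher and 6 were not called, with a median of -0.45. Over all genes tested, 5.51% were lower and 11.3% higher. Satb1, a chromatin organiser of T cells, read 2442, 2954 and 2530 in Luxoid NKT cells and 5791 and 6119 in CD4SP cells (2.26-fold, adjusted p = 0.000784). Ccr7, which guides cells to the medulla and to lymph nodes, was at 1907, 2021 and 1891 against 3849 and 4227 (-1.06, SE 0.13, adjusted p = 0.00103). Like every called gene, both separated the groups. Actn1 fell by 1.57 (adjusted p = 0.00191). Klf2, the factor that controls exit from the thymus, S1pr1, the egress receptor it drives, and Lef1 were not called, with differences of 0.10, -0.22 and -0.04 and adjusted p = 0.757, 0.424 and 0.891. Of the 9 lower genes 5 kept the call whichever array was left out. Foxp1, a factor of T cell quiescence, was 1.73-fold lower, with adjusted p = 0.103 without CD4SP array 2, and Klf3 was 1.51-fold lower, with 4 omissions ending the call, up to 0.213 without CD4SP array 2, and 1 of its 7 probe sets of opposite sign.

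Cell cycle genes were higher as a group. Of 34 tested, 24 were higher and 1, Ccnd3, was lower, with a median of 0.87. The call of Ccnd3, a G1 cyclin, was lost without CD4SP array 1 or array 2, at adjusted p = 0.0716 and 0.112. Aurka, a mitotic kinase, read 395, 352 and 370 in Luxoid NKT cells and 134 and 119 in CD4SP cells (2.94-fold, log2 1.55, SE 0.14, adjusted p = 0.000154). Ccnb2, a mitotic cyclin, was at 1060, 859 and 977 against 406 and 285 (1.50, SE 0.19, adjusted p = 0.000951). Cdk1, the mitotic kinase, was 3.28-fold higher, with adjusted p = 0.0712 without CD4SP array 2. No cell cycle gene was called between the NKT groups, and 10 of the 24 higher genes kept the call whichever array was left out. Ribosome biogenesis genes, a neighbouring growth programme, had 2 higher, or 1 with the replicate block, none lower and 21 not called. With 11.3% of all genes tested called higher, this list held no excess. Survival genes had 2 higher and 5 lower of 14: Traf1, an NF-kappaB target, fell by 2.65, and Tnfaip3 and Birc3 by 1.04 and 1.09 (adjusted p = 0.000514, 0.00273 and 0.00164).

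**Figure D3:**
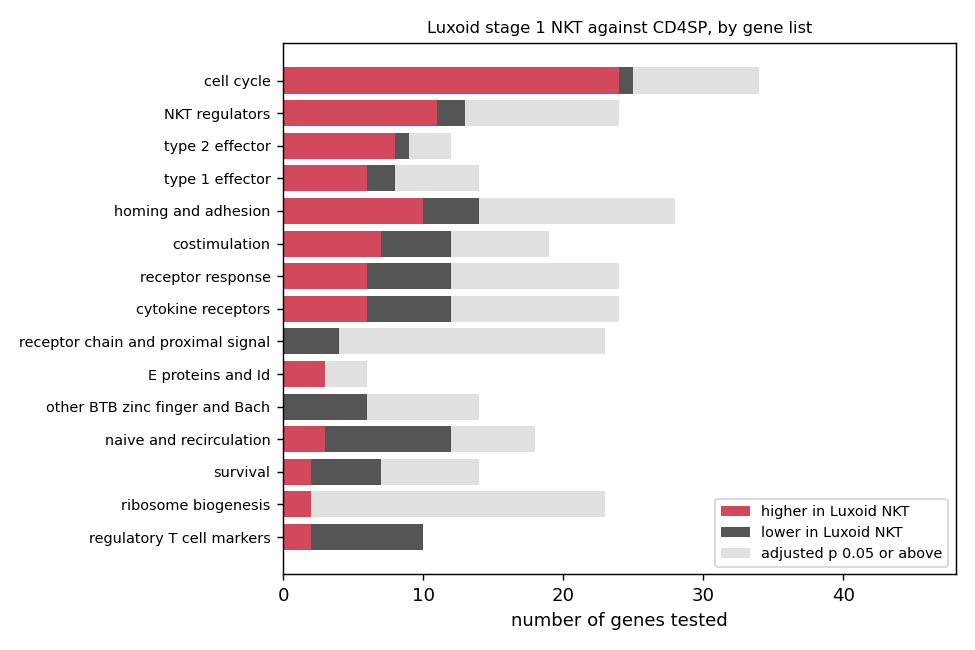
Number of tested genes in each of 15 lists that were higher, lower or not called in Luxoid NKT against CD4SP cells. The cell cycle bar holds 24 higher genes of 34, and the receptor response bar holds 6 on each side of 24. Over all genes tested, 11.3% were higher and 5.51% lower.

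Signs of less mature cells were checked because the CD4SP sort had no CD24 gate. Cd24a, the gate gene of the NKT sort, read 26.0, 14.9 and 57.1 in Luxoid NKT cells and 246 and 239 in CD4SP cells, which were at least 2.96-fold brighter (adjusted p = 0.00203). Dntt, the terminal transferase of immature thymocytes, was at 98.0, 51.1 and 120 against 461 and 527 (-2.55, SE 0.35, adjusted p = 0.00151). Both belong to a list of immature thymocyte genes that moved in both directions. Of 10 tested there, 4 were lower, 2 were higher, among them Ccr9, given above, and 4 were not called. Of 5 tested markers of CD4+ CD8+ thymocytes, 2 were lower and none was higher, with summed levels of 2242 to 3324 on Luxoid and 2772 to 3012 on CD4SP arrays. Rag1 lay under the filter on every array, at 21.7 to 54.1. The part of immature cells in the lower genes was not tested. Of 4 tested B cell markers 1 was higher and 2 were lower, of 6 myeloid markers 2 were higher, of 4 NK markers 1 was higher, or 2 with the replicate block, and 1 lower, and no erythroid marker was bright enough to be tested.

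The other genes with the largest differences were mostly shared with PLZF-sufficient NKT cells. Moxd1, a monooxygenase-like gene, read 1888, 1720 and 1934 in Luxoid NKT cells, 16.0 and 28.1 in CD4SP cells, and 670 and 611 in PLZF-sufficient NKT cells. It was at least 22.5-fold brighter in the mutant than in CD4SP cells, which lay under the filter limit (adjusted p = 1.89e-06). Both NKT groups were above CD4SP cells for Moxd1, and the mutant was above PLZF-sufficient NKT cells by 1.53 (adjusted p = 0.013). Without the first or second PLZF-sufficient array or Luxoid array 3, that last call was lost, at adjusted p = 0.115, 0.189 and 0.0564. S100a4 and S100a6, calcium-binding proteins of effector and memory T cells, were 43.2-fold and 28.3-fold higher than in CD4SP cells (adjusted p = 3.27e-06 and 9.99e-06). Rbpms, an RNA-binding protein, was at least 13.1-fold brighter than CD4SP cells (adjusted p = 2.01e-05). Among the lower genes, Tmie was at 254, 327 and 164 against 3191 and 3666 (14.3-fold, log2 -3.84, SE 0.26, adjusted p = 3.44e-05). Als2cl fell by 2.82 on the log2 scale, and Arhgap20 was at least 4.14-fold brighter in CD4SP cells, with all Luxoid arrays under the filter limit (adjusted p = 7.02e-06 and 4.10e-05).

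Each gene called against CD4SP was placed by its calls in the other comparisons, which share arrays with it. Of the 1232 higher genes, 830 were also higher in PLZF-sufficient NKT cells with no difference called between the NKT groups, and of the 599 lower genes 300 were likewise lower (468 with the replicate block). A further 320 and 266 were called in Luxoid NKT cells alone, but without a call between the NKT groups. Mutant-only genes, called in the same direction against both other groups and not between those groups, numbered 40 higher and 18 lower. The rule draws them from the 98 (0.901%) and 71 (0.653%) genes called between the NKT groups. Of the 40 higher genes, 12 kept both calls whichever array was left out, and of the 18 lower genes 0 did. Leaving out the first or second PLZF-sufficient array left 26 or 17 higher and 3 lower mutant-only genes, and leaving out Luxoid array 3, CD4SP array 1 or CD4SP array 2 left 7, 9 and 10 lower ones. Without both arrays of mixed sex signal, 1 higher and 0 lower remained in number, with a lone PLZF-sufficient array assumed to vary like the other groups.

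The mutant-only higher genes named next, down to Icosl, kept both calls whichever array was left out. Il10ra, the ligand-binding chain of the interleukin 10 receptor, read 583, 475 and 672 in Luxoid NKT cells, 108 and 87.4 in CD4SP cells, and 108 and 92.2 in PLZF-sufficient NKT cells. The mutant arrays stood alone, 5.88-fold above CD4SP cells (log2 2.56, SE 0.18, adjusted p = 5.06e-05) and 2.52 above PLZF-sufficient NKT cells on the log2 scale (adjusted p = 0.000477). Snx9, a sorting nexin of endocytosis, was at 307, 287 and 368 against 62.8 and 57.0 in CD4SP and 46.6 and 47.5 in PLZF-sufficient NKT cells. Snx9 was at least 3.89-fold brighter in the mutant than in either other group, both under the filter limit (adjusted p = 0.000107 between the NKT groups). Lratd1 read 366, 301 and 313 against 18.4 and 18.4 in CD4SP and 47.1 and 23.0 in PLZF-sufficient NKT cells, and was at least 3.97-fold brighter in the mutant than in CD4SP cells.

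Signal regulators were among them. Dusp4, a phosphatase of ERK and JNK induced by receptor signals, read 420, 380 and 491 in Luxoid NKT cells, 141 and 123 in CD4SP cells, and 160 and 148 in PLZF-sufficient NKT cells. The differences were 1.70 from CD4SP (adjusted p = 0.000184) and 1.47 from PLZF-sufficient NKT cells (adjusted p = 0.00234). Rgs1, which dampens chemokine receptor signals, was at 621, 862 and 649 against 238 and 274 in CD4SP and 200 and 180 in PLZF-sufficient NKT cells. Ramp3, a partner of calcitonin family receptors, rose by 1.97 and 2.47 against the respective groups (adjusted p = 0.00117 and 0.00213). Icosl, the ligand of ICOS, was at 159, 144 and 158 in the mutant and 49.9 to 60.9 on all 4 other arrays, although another of its probe sets had the opposite sign.

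Other mutant-only genes rested on fewer arrays. Nfil3, a basic leucine zipper factor of cytokine-driven lymphocytes, read 180, 136 and 150 in Luxoid NKT cells, 59.4 and 49.1 in CD4SP cells, and 58.6 and 55.6 in PLZF-sufficient NKT cells. It was at least 1.88-fold brighter in the mutant than in either group (adjusted p = 0.000486 and 0.00354), and the latter became 0.0685 without the second PLZF-sufficient array. Kitl, the ligand of the receptor KIT, was at 192, 103 and 140 against 28.0 to 39.2 on the other 4 arrays, with adjusted p = 0.0844 between the NKT groups without the first PLZF-sufficient array. Tnfsf8, the CD30 ligand, was at 638, 354 and 406 against 126 to 167 on the other 4, with adjusted p = 0.0871 and 0.222 without the first and second PLZF-sufficient array.

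Mutant-only lower genes included surface receptors. Tnfrsf25, the death receptor DR3, read 81.7, 93.5 and 62.0 in Luxoid NKT cells, 237 and 271 in CD4SP cells, and 179 and 200 in PLZF-sufficient NKT cells. It fell by 1.70 and 1.28 (adjusted p = 0.000546 and 0.014), and the latter rose to 0.111 and 0.202 without the first and second PLZF-sufficient array. With the replicate block PLZF-sufficient NKT cells were also called lower than CD4SP for Tnfrsf25 (-0.42, adjusted p = 0.0435, against 0.219 without it), which ends its mutant-only place. Lair1, an inhibitory collagen receptor, was at 86.1, 70.1 and 49.8 against 230 and 271 in CD4SP and 168 and 232 in PLZF-sufficient NKT cells. Its call between the NKT groups (-1.56, adjusted p = 0.0178) became 0.0764 and 0.244 without the first and second PLZF-sufficient array. St3gal6, a sialyltransferase of selectin ligands, fell by 1.71 and 1.64 (adjusted p = 0.000707 and 0.0048), the latter with 0.0568 and 0.0939 on the same omissions.

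**Figure D4:**
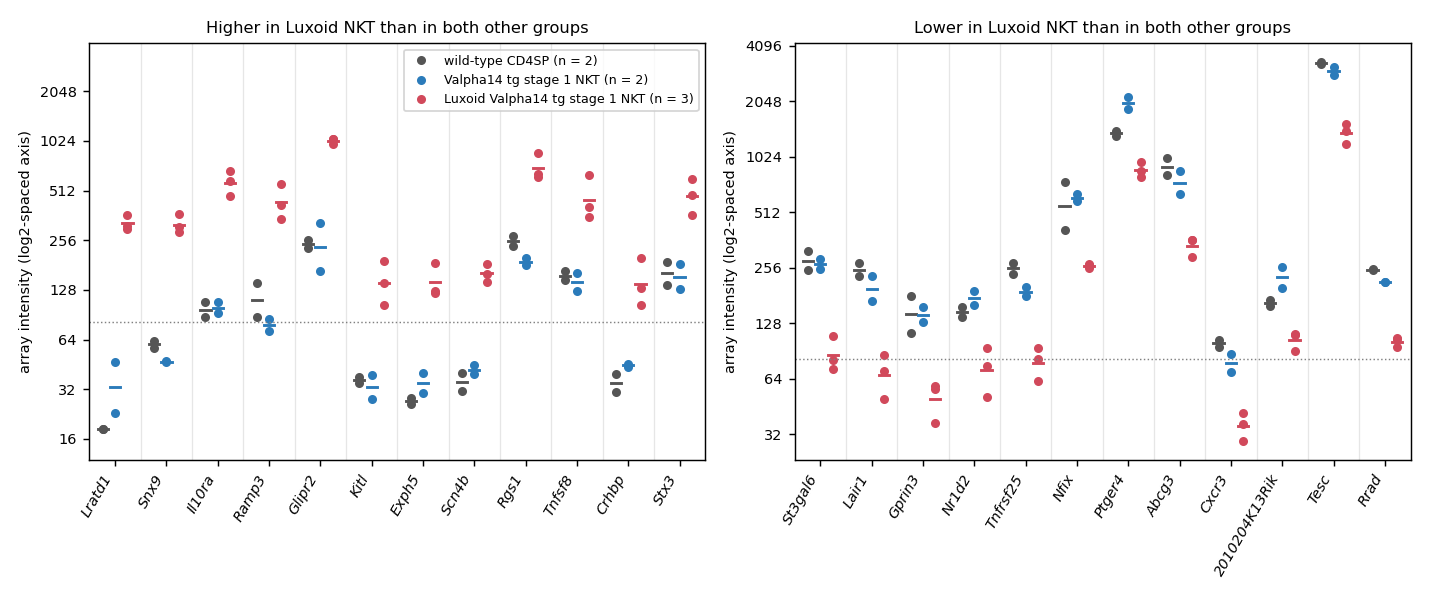
Array intensities on a log2-spaced axis for the 12 mutant-only genes in each direction with the largest difference between the NKT groups, with a point for each array, a bar at each group's mean of log2 values and a dotted line at the brightness filter of 82.0. Luxoid arrays do not overlap the other 4 in any gene shown, as the rule that chose them favours.

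Egr2 and Egr3 were higher in Luxoid NKT than in CD4SP cells, with no difference called between the NKT groups. Egr3 was also higher in PLZF-sufficient NKT than in CD4SP cells. The promoters of the mutant-only higher genes were searched for the Egr motif GCGNGGGCG on both strands. Any part of Egr factors in these genes was not tested. RefSeq promoters of build GRCm38.p6, 250 bases before to 50 after the start, were found for 30 of the 40 genes. A gene counted if any of its listed promoters matched, and 6 of these did (20.0%). So did 3 of 16 mutant-only lower genes (18.8%) and 1083 of 8861 tested genes (12.2%) with a listed promoter. Counted by single promoter, a unit not comparable with genes, the motif was in 1824 of all 32851 (5.55%). The promoters were rich in G and C, with a median of 63.7% for the 30 genes, 60.7% for tested genes and 52.7% for all promoters. The 2 genes with a match and the largest difference between the NKT groups are shown, Tubb3 at chr8:123411303-123411602 on the plus strand and Nfil3 at chr13:52980990-52981289 on the minus strand, each 5′ to 3′ with the motif in capitals. A match describes the letters in the window and shows no binding.
Tubb3: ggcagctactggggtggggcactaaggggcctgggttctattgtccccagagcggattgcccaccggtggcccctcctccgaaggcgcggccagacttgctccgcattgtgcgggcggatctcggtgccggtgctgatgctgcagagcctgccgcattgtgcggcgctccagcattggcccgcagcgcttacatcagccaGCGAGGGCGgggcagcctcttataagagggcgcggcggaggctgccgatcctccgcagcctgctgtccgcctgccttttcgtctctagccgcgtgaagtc
Nfil3: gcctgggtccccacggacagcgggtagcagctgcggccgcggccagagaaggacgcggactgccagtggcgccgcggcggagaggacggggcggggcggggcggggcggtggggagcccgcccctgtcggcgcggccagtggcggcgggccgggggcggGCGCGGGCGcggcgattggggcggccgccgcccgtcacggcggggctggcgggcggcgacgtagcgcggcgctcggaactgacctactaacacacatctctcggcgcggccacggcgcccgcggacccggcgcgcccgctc
Tubb3, a neuronal tubulin, read 280, 251 and 303 in Luxoid NKT cells, 90.2 and 97.2 in CD4SP cells, and 86.9 and 97.7 in PLZF-sufficient NKT cells. It rose by 1.57 and 1.59 (adjusted p = 0.000181 and 0.00109) and kept both calls whichever array was left out.

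Another 24 genes were higher than CD4SP in both NKT groups and higher still in the mutant. Kcnj8, a potassium channel subunit, read 1571, 1409 and 1615 in Luxoid NKT cells, 117 and 106 in PLZF-sufficient NKT cells, and 47.4 and 29.2 in CD4SP cells. It was at least 18.6-fold brighter in the mutant than in CD4SP cells and differed by 3.78 between the NKT groups (adjusted p = 0.000107). Fgl2, a fibrinogen-like effector protein, was at 958, 1178 and 1278 against 112 and 66.9 and against 24.7 and 24.9 (3.71 between the NKT groups, adjusted p = 0.000207). Fcer1g, the signalling chain of Fc and NK receptors, was at 843, 982 and 951 against 253 and 218 and against 68.9 and 82.5 (1.98, adjusted p = 0.000554). In each gene the 3 groups were fully separate, and the calls of Kcnj8, Fgl2 and Fcer1g held whichever array was left out. Il2rb, given above, was also higher in the mutant than in PLZF-sufficient NKT cells, by 0.97 (adjusted p = 0.0389), and that call was lost on leaving out any of the 7 arrays, with adjusted p from 0.0638 to 0.284, and with the replicate block (0.0606). In the lower direction 4 genes went beyond PLZF-sufficient NKT cells.

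A set of 14 higher genes stopped short of the PLZF-sufficient level, and 6 lower ones did likewise. Ccr2, a receptor for inflammatory chemokines, read 256, 281 and 413 in Luxoid NKT cells, 1776 and 1732 in PLZF-sufficient NKT cells, and 75.4 and 42.5 in CD4SP cells. The mutant was at least 3.78-fold brighter than CD4SP cells and 2.50 under PLZF-sufficient NKT cells on the log2 scale (adjusted p = 0.00266, and 0.0521 without the second PLZF-sufficient array). Rora, a nuclear receptor of innate-like lymphocytes, was at 378, 365 and 571 against 1703 and 1922 in PLZF-sufficient NKT cells and 165 and 231 in CD4SP cells. Its call against CD4SP (1.13, adjusted p = 0.0113) became 0.104 without CD4SP array 1, that against PLZF-sufficient NKT cells (-2.08, adjusted p = 0.00293) became 0.0638 without the second of these arrays, and another of its probe sets had the opposite sign. Il4 and Il13, above, belong to the same set, and for Il13 the call between the NKT groups (-1.35, adjusted p = 0.0204) was lost in 4 of the 7 omissions, with adjusted p up to 0.279 without the second PLZF-sufficient array. Bcl6, a BTB zinc finger repressor, was 1.52-fold lower than in CD4SP cells, at 439, 441 and 391 against 639 and 646, and read 167 and 142 in PLZF-sufficient NKT cells. Its call against CD4SP (adjusted p = 0.0199) was lost without Luxoid array 3 (0.0579), CD4SP array 1 (0.0957) or CD4SP array 2 (0.113).

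In 9 genes the NKT groups lay on opposite sides of CD4SP. Sema4f, a semaphorin, read 3248, 2670 and 3817 in Luxoid NKT cells, 1294 and 972 in CD4SP cells, and 680 and 492 in PLZF-sufficient NKT cells. The mutant was 1.52 above CD4SP (adjusted p = 0.00193) and 2.47 above PLZF-sufficient NKT cells (adjusted p = 0.000955). Ifngr1, the other chain of the interferon gamma receptor, was at 561, 607 and 540 against 303 and 388 in CD4SP and 163 and 190 in PLZF-sufficient NKT cells, with adjusted p = 0.121 against CD4SP without CD4SP array 1. Nrp1, neuropilin 1, went the other way, at 74.7, 74.3 and 86.7 against 177 and 140 in CD4SP and 308 and 223 in PLZF-sufficient NKT cells. Its call against CD4SP (-1.01, adjusted p = 0.00698) became 0.072 without CD4SP array 1. Its relative Nrp2 rose instead, at 954, 726 and 796 against 54.1 and 41.7 in CD4SP cells and 225 and 138 in PLZF-sufficient NKT cells, at least 10.0-fold brighter than CD4SP cells (adjusted p = 1.52e-05), although 2 of the 4 probe sets of Nrp2 had the opposite sign.

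**Figure D5:**
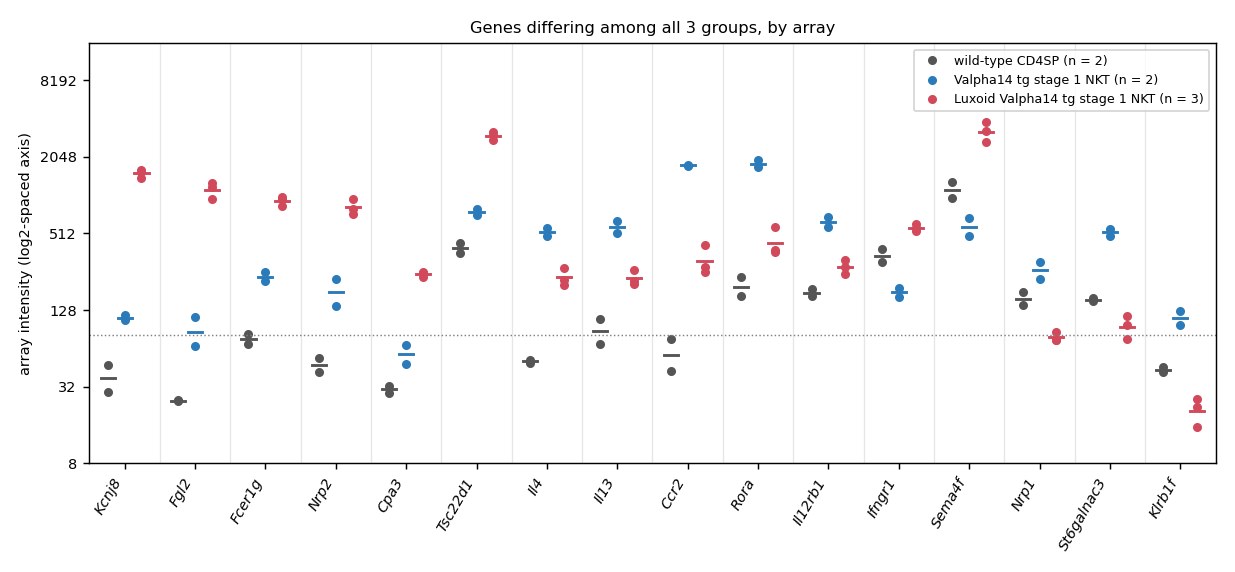
Array intensities on a log2-spaced axis for 16 genes called in all 3 comparisons, with a point for each array, a bar at each group's mean of log2 values and a dotted line at the brightness filter of 82.0. Kcnj8 reaches 1409 to 1615 in Luxoid NKT cells, while Ccr2 reaches 1732 and 1776 in PLZF-sufficient NKT cells and Nrp1 is lowest in the mutant.

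In 48 genes PLZF-sufficient NKT cells differed from both other groups and no difference was called between Luxoid NKT and CD4SP cells. The 3 named here were chosen after their values were seen. Icos, a costimulatory receptor, read 3298, 2722 and 2652 in Luxoid NKT cells, 3135 and 2778 in CD4SP cells, and 6599 and 5867 in PLZF-sufficient NKT cells. The mutant overlapped CD4SP (log2 difference -0.04, 95% interval -0.39 to 0.31) and was 1.11 under PLZF-sufficient NKT cells (adjusted p = 0.00946, and 0.125 and 0.0807 without the first and second of these arrays). One other probe set of Icos had the opposite sign. Il4ra, the interleukin 4 receptor chain, was at 734, 895 and 742 in the mutant, 1075 and 1017 in CD4SP cells, and 173 and 277 in PLZF-sufficient NKT cells. Rasgrp1, an activator of Ras downstream of the receptor, was at 3687, 4272 and 3918, at 4497 and 4830, and at 1543 and 1623 in the same order of groups. Between the NKT groups Il4ra and Rasgrp1 differed by 1.85 and 1.32 (adjusted p = 0.00295 and 0.00192), and these calls held whichever array was left out.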

How the data were processed

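RNA from pools of sorted thymocytes was amplified, labelled with biotin and hybridised to Affymetrix Mouse Genome arrays of 1 colour, per the labels' protocols. The deposited values are linear intensities, 3.08 to 20875, made by the authors with RMA in Affymetrix Expression Console, per the submitters' processing notes. RMA equalises the distribution of values between arrays and compresses differences of dim probe sets. The fixed design assumed log2 values, so log2 was taken first. The members and gene lists were chosen with earlier results of these data known.

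Of 45037 probe sets, 34945 had 1 gene symbol in the platform annotation, 932 had several and 9160 were not listed. The brightest probe set of each gene was kept if it reached 82.0, the 50th percentile of all values, on 2 or more arrays. Detection calls were not used here. With limma 3.58.1 (lmFit, eBayes) under R 4.3.3, a mean per group was fitted over the 7 arrays together (4 residual and 4.49 prior degrees of freedom), with Benjamini-Hochberg adjustment over 10874 genes for each comparison. If no array of the dimmer group reached 82.0, a fold is "at least" the brighter mean over 82.0, a rule chosen after the data were seen. The number of arrays limits the precision. The named genes came from the 12 largest differences per direction, up to 8 called members per list, and the leading mutant-only genes, except where the text says otherwise. Cd3e, Ccnd3, Sema4f, Ifngr1, Tubb3, Icosl, Rag1, the sex-linked genes and the genes plotted for all 3 groups were chosen after their values were seen. Tested on simulated data with 10874 genes, the fit recovered 2.99%, 52.2% and 95.5% of Luxoid differences of 0.5, 1 and 2 on the log2 scale. It made 5 false calls. Only 67, 67 and 66 genes were changed there, against 1831 called in the data, so recovery in the data may differ. Replicate numbers 1 and 2 recur in each group, and the labels tie them to no animal or batch. Deviations from the group means correlated at 0.334 to 0.491 in all 6 pairs of same-numbered arrays, so the numbers were taken to pair the samples, from the data alone. These pairs are not independent, since both arrays of a group of 2 deviate equally in opposite directions. Luxoid and CD4SP arrays 1 had Xist only and arrays 2 had Kdm5d only. Between these arrays the replicate number therefore cannot be told apart from sex. The fixed design had no block, so the main p-values, intervals and counts ignore a pairing by replicate number. The blocked fit is given where it changes a call or moves a count by over 1.5 times, and Luxoid array 3, alone under its number, adds nothing to it. Alternatives covered filters, probe set choice, scaling, the fit, a sex covariate and omission of each array.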

Additional observations from a re-analysis of the deposited data

Results flagged for a closer look

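Probe sets without a single gene name stayed outside the comparisons above and also differed between Luxoid NKT and CD4SP cells. Of 3166 tested probe sets that the annotation does not list, 121 (3.82%) were higher and 168 (5.31%) lower (limma, adjusted p under 0.05). Among the genes tested, 11.3% were higher and 5.51% lower, so neither share here exceeded that of genes. The one with the largest difference in the higher direction read 2147, 2030 and 1554 in Luxoid NKT cells and 12.5 and 19.1 in CD4SP cells, with 2479 and 2711 in PLZF-sufficient NKT cells. Of 585 tested probe sets with several gene symbols, 20 (3.42%) were higher and 27 (4.62%) lower, also under the shares of genes. The leading higher one among these read 8534, 7436 and 7217 in Luxoid NKT cells against 150.0 and 105 in CD4SP cells.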

How the results depend on the processing

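Counts are given as higher, lower, mutant-only higher and mutant-only lower genes, against 1232, 599, 40 and 18. Omitting 1 array at a time gave 633 to 1182, 233 to 544, 17 to 39 and 3 to 22. Requiring the 75th percentile (307) in place of the 50th left 8 mutant-only lower genes among fewer genes tested. Leaving out both arrays with Xist and Y-linked signal, an alternative chosen after seeing the data, gave 682, 236, 1 and 0. In that setting 14 of the 108 calls against CD4SP and 32 of the 36 calls between NKT groups of genes named in the text were lost, with 5 arrays left and 1 of them PLZF-sufficient. In the other alternatives run (both groups alone, mean of probe sets, no filter, renewed quantile normalization, median centring, trend, array weights, Y-linked covariate) every count was within 1.5 times the main one. No named gene reversed in any alternative. The share of higher genes among those called was 67.3%, and 61.5% and 72.3% with renewed quantile normalization and median centring.

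With the replicate block the counts were 1510, 789, 39 and 13. Of the genes named in the text, 1 call against CD4SP (Sox13) and 4 between the NKT groups (Cxcr3, Hopx, Il2rb and Moxd1, adjusted p = 0.0635, 0.0641, 0.0606 and 0.0506) were lost, and 4 between the NKT groups (Bach2, Ccr4, Nr4a3 and Traf1, adjusted p = 0.0248, 0.0336, 0.0336 and 0.0232) were gained. The block changed no other call of a named gene in these comparisons. Between PLZF-sufficient NKT and CD4SP cells, the block gained the calls of Kdm5d, Tcf4, Tnfrsf25 and Zbtb7b (adjusted p = 0.00446, 0.0445, 0.0435 and 0.0263). In that fit Tcf4 was higher and Zbtb7b lower than CD4SP in both NKT groups. Differences near the brightness filter were limited by signal over background.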
